A study of Mus musculus with 16 samples.

Results

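The core circadian clock loop was followed in mouse liver through 10 genes: the activators Arntl, Clock and Npas2, the repressors Per1, Per2, Per3, Cry1 and Cry2, and the nuclear receptors Nr1d1 and Nr1d2. The members were taken by gene symbol from a table of 15544 rows. All 10 had a row. All 10 also reached a value of 1 in at least 4 of the 16 libraries, the filter that left 12704 tested genes. Npas2 passed that filter with exactly 4 libraries.

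Liver RNA of female mice aged 27 weeks was sequenced in 16 libraries, 4 in each of 4 groups. Control mice were Esr1 fl/fl, carrying floxed alleles of the gene for oestrogen receptor alpha (ERα). Mutant mice were Esr1 Nkx2-1Cre, in which Cre under the Nkx2-1 promoter removes ERα from part of the hypothalamus, so the liver was not the targeted tissue. Both genotypes therefore carried the floxed alleles, on a mixed genetic background, and were housed in a light and dark cycle. The groups Control_Chow and Mutant_Chow were kept on chow, and Control_HFD and Mutant_HFD received a high-fat diet (HFD) for 17 weeks. Values were taken as size-factor-adjusted TPM (transcript shares of a library), a unit that was inferred and is not stated. TPM are scaled by transcript length, and comparisons of level between genes rest on that inference. Replicates are named by group and number, and the numbers pair no libraries. The hour at which each liver was taken is not given in the sources used here.

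Column totals ran from 905897 to 1119703, and between 11834 and 12443 genes reached 1 in a library. No 2 libraries held identical columns. The hepatocyte markers, 7 of 8 with a row, summed to between 61379 and 102730 in every library, and no listed hepatocyte, bile duct, Kupffer, endothelial, stellate, lymphocyte or red cell marker with a row was at 0 in any library. Library titles carry numbers that form 4 runs, called title series here, none of which spans both diets. The lower HFD series holds Control_HFD 1, 2 and 3 with Mutant_HFD 1, and the higher HFD series holds Mutant_HFD 2, 3 and 4 with Control_HFD 4. The lower chow series holds Control_Chow 1 and 2 with Mutant_Chow 1, and the higher chow series holds the other 5 chow libraries. The labels do not say what the numbers mean.

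The clock is a delayed negative feedback loop present in most cells. ARNTL (also called BMAL1) pairs with CLOCK or its paralogue NPAS2, binds E-boxes and switches on the Per, Cry and Nr1d genes. PER and CRY proteins accumulate and then block the activators. NR1D1 and NR1D2 (the Rev-erbs) repress Arntl and Npas2 through elements that the ROR receptors use to activate them, and a further arm of factors that includes DBP and NFIL3 acts through D-boxes. In the liver of a mouse kept in light and dark, Arntl, Npas2 and Nfil3 RNA is highest around the end of the night, Nr1d1 peaks in the middle of the light phase, Nr1d2, Dbp and Per3 follow in its later part, and Per1 and Per2 peak around nightfall. Levels of these genes in a sample thus depend on when it was taken.

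Sequences near the start sites are shown because the loop is known to act on its own genes through such elements. They were read from RefSeq promoter windows on GRCm38, from 250 bases before to 50 after a start site, and both strands were searched for CACGTG (an E-box), TTANGTAA (a D-box) and AGGTCA (the core bound by ROR and Rev-erb receptors). Over 32851 windows, CACGTG was found in 7.15%, TTANGTAA in 2.32% and AGGTCA in 16.3%. The motifs share no letters at the positions shown. Each sequence runs 5′ to 3′ on the strand of its gene, with the matches in capitals. The stretches are chr11:69098759-69098838, plus strand, for Per1; chr10:85185075-85185154, minus strand, for Cry1; chr4:151044806-151044885, minus strand, for Per3; chr14:18239157-18239216, minus strand, for Nr1d2; and chr7:113207530-113207559, plus strand, for Arntl.
Per1: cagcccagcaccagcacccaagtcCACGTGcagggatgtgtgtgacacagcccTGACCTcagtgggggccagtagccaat
Cry1: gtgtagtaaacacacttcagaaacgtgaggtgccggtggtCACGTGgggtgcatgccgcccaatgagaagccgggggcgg
Per3: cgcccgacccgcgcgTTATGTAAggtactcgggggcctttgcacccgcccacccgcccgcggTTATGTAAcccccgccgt
Nr1d2: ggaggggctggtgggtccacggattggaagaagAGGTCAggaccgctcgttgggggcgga
Arntl: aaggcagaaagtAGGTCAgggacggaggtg
The Per1 stretch holds an E-box 166 bases before the first of 2 listed start sites and, on the other strand, an AGGTCA 137 bases before it. Cry1 holds an E-box 60 bases before its start. Per3 holds a pair of D-boxes, 205 and 158 bases before its start. Nr1d2 holds an AGGTCA 77 bases before its start, and Arntl holds 1 lying 31 bases after the later of its 2 listed start sites. No window of Npas2, Cry2 or Nr1d1 held any of these letters, which says nothing of elements elsewhere. Clock held an AGGTCA 119 bases before 1 of its 3 listed start sites. Windows of 9 members were searched, all but Per2. A match is a run of letters and not evidence of binding.

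Arntl (ENSMUSG00000055116, chromosome 7, 113207465 to 113314126, plus strand) encodes the activator that the loop cannot run without. On chow it was 1.71, 13.04, 1.91 and 0.564 in controls and 10.97, 5.61, 0.953 and 1.95 in mutants. On HFD it was 2.83, 1.31, 0.397 and 0.936 in controls and 2.27, 0.577, 0.272 and 0.530 in mutants. These values follow the replicate numbers 1 to 4 in each group. Control_Chow 2, Mutant_Chow 1 and Mutant_Chow 2 stood above all others, and their nearest neighbour was Control_HFD 1. The highest library was 47.9 times the lowest, and controls and mutants overlapped on both diets. Group means were 4.31 ± 5.85 in Control_Chow, 4.87 ± 4.53 in Mutant_Chow, 1.37 ± 1.05 in Control_HFD and 0.912 ± 0.915 in Mutant_HFD (SD, n = 4), so on chow the SD was of the size of the mean.

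Npas2 (ENSMUSG00000026077, chromosome 1, 39193731 to 39363236, plus strand) encodes a partner of ARNTL that can stand in for CLOCK. It was 0.490, 7.51, 0.589 and 0.119 in controls and 10.1, 1.95, 0.0359 and 0.314 in mutants on chow. It was 0.300, 0.770, 0.0788 and 0.307 in controls and 1.70, 0.707, 0.603 and 0.410 in mutants on HFD. The same 3 chow libraries were highest, with Mutant_HFD 1 next at 1.70. The remaining 12 libraries were all under 1, and the ratio of highest to lowest was 280.1, resting on a lowest value of 0.0359. Clock (ENSMUSG00000029238, chromosome 5, 76209868 to 76304792, minus strand), the usual partner of ARNTL, varied less, 3.85-fold from lowest to highest. It ranged from 3.50 to 9.57 in Control_Chow, 4.72 to 9.37 in Mutant_Chow, 2.49 to 4.93 in Control_HFD and 3.96 to 4.95 in Mutant_HFD. Its 3 highest values, 7.44 to 9.57, again lay in Control_Chow 2, Mutant_Chow 1 and Mutant_Chow 2, with the other 13 libraries at 2.49 to 6.64.

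**Figure D1:**
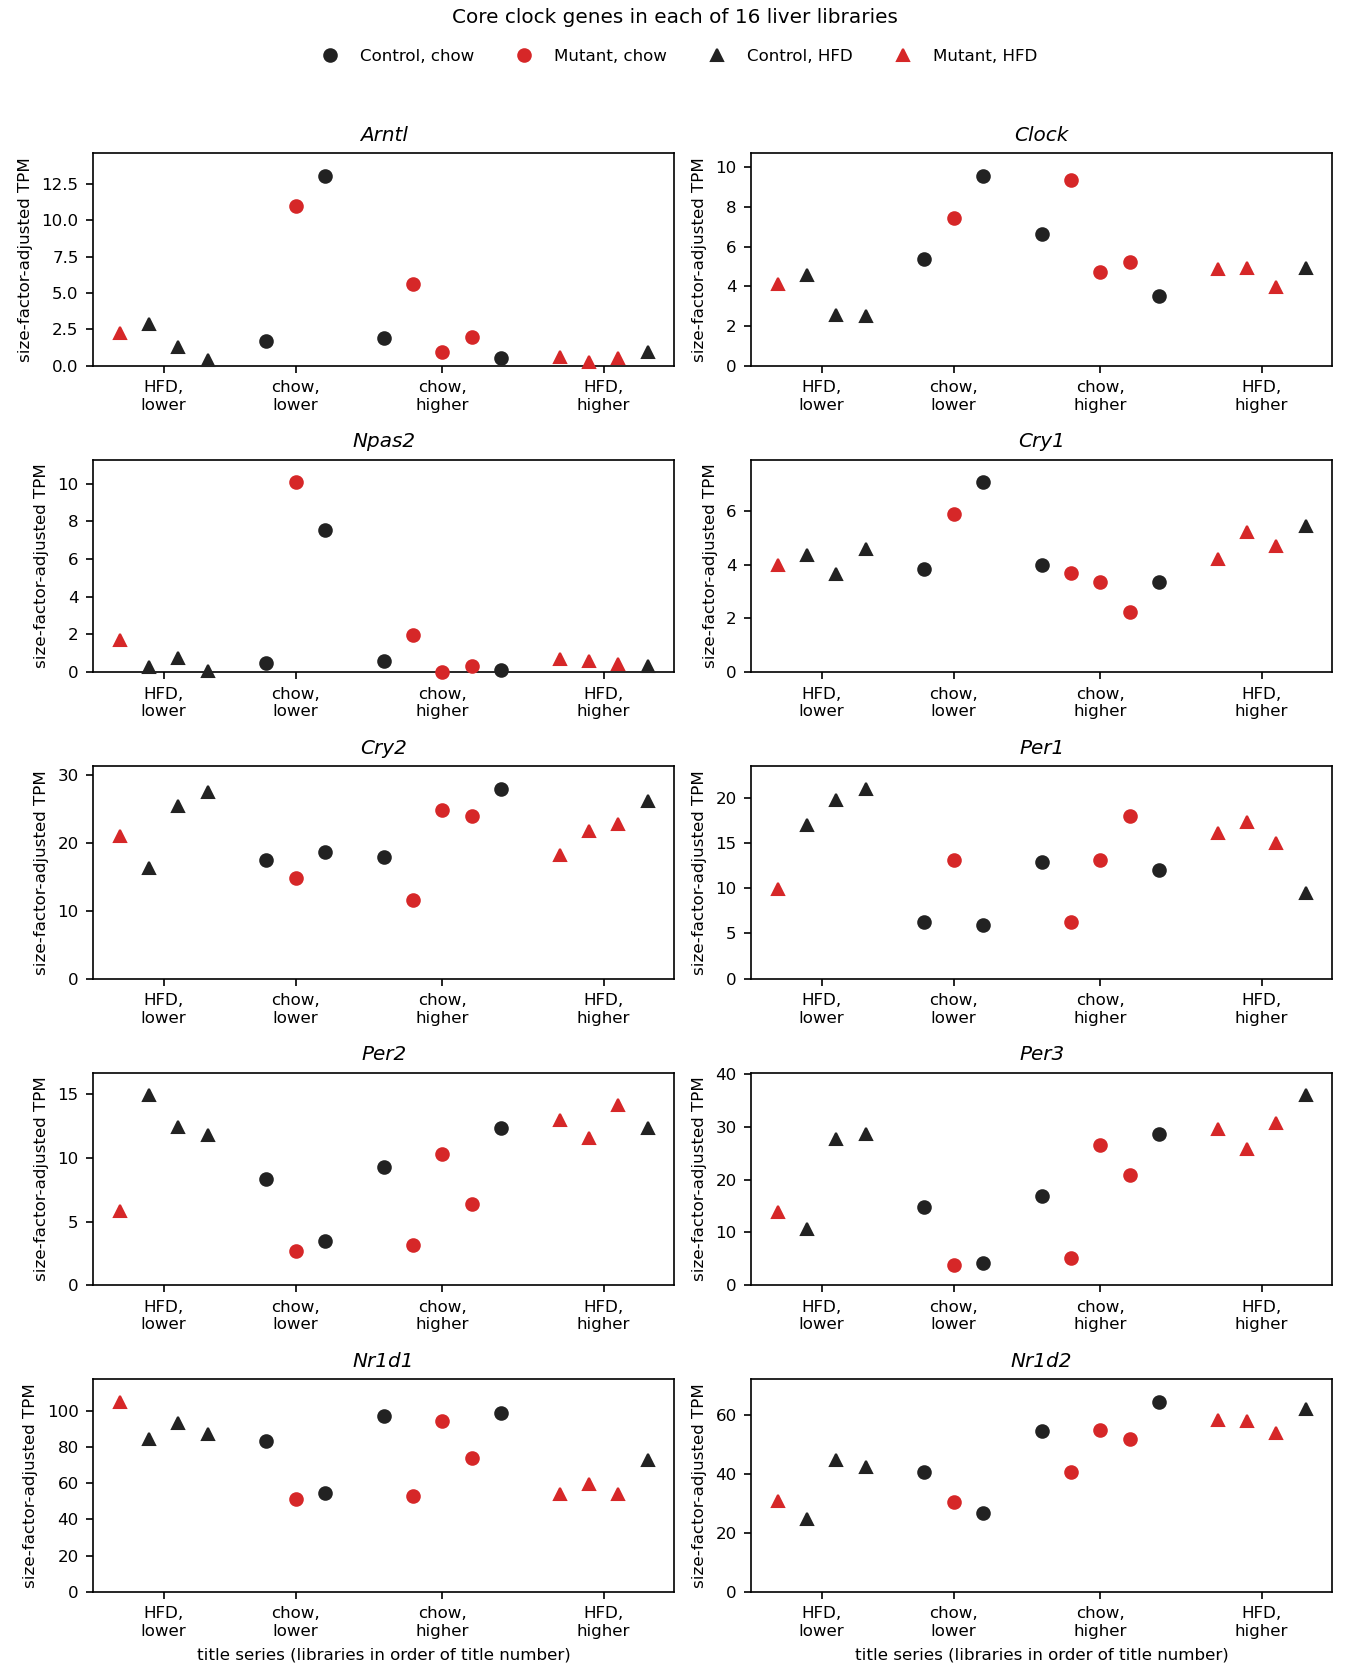
Each point is 1 library and each panel 1 gene, with size-factor-adjusted TPM from 0 on the linear y axis and libraries ordered by title number within the 4 title series on the x axis; circles are chow, triangles HFD, black controls and red mutants. Arntl stood at 5.61 to 13.04 in Control_Chow 2, Mutant_Chow 1 and Mutant_Chow 2 and at 0.272 to 2.83 in the other 13, with Per3 low in the same 3.

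Among the repressors, Per3 (ENSMUSG00000028957, chromosome 4, 151003652 to 151044665, minus strand) and Per2 (ENSMUSG00000055866, chromosome 1, 91415982 to 91459324, minus strand) ran opposite to Arntl. Per3 on chow was 14.9, 4.16, 16.95 and 28.7 in controls and 3.90, 5.08, 26.6 and 20.96 in mutants. On HFD, Per3 was 10.7, 27.8, 28.6 and 35.98 in controls and 13.8, 29.5, 25.8 and 30.7 in mutants. The 3 libraries of highest Arntl held the 3 lowest Per3 values, 3.90 to 5.08, and the rest lay at 10.7 to 35.98. Control_HFD 1 and Mutant_HFD 1 came next from below. Per2 encodes a repressor whose protein sets much of the timing of the loop. Per2 on chow was 8.38, 3.50, 9.27 and 12.3 in controls and 2.68, 3.19, 10.3 and 6.41 in mutants. On HFD it was 14.9, 12.4, 11.8 and 12.3 in controls and 5.81, 12.9, 11.5 and 14.1 in mutants. The same 3 libraries held the 3 lowest values, 2.68 to 3.50 against 5.81 to 14.9, and Mutant_HFD 1 was the next.

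Per1 (ENSMUSG00000020893, chromosome 11, 69095217 to 69109960, plus strand), which also answers to hormones and feeding, did not split in this way. It ranged over 5.97 to 12.9 in Control_Chow, 6.24 to 17.95 in Mutant_Chow, 9.42 to 20.95 in Control_HFD and 9.89 to 17.3 in Mutant_HFD. Mutant_Chow 1, which was high in Arntl, had a Per1 of 13.1, while Control_Chow 2 and Mutant_Chow 2 were at 5.97 and 6.24. Cry1 (ENSMUSG00000020038, chromosome 10, 85131700 to 85185064, minus strand), whose RNA peaks later than that of the Per genes, was at 3.36 to 7.06, 2.26 to 5.88, 3.66 to 5.45 and 3.98 to 5.21 in the groups in that order. Its 2 highest values, 7.06 and 5.88, lay in Control_Chow 2 and Mutant_Chow 1, but Mutant_Chow 2 was at 3.68, within the range of the rest. Cry2 (ENSMUSG00000068742, chromosome 2, 92403646 to 92434043, minus strand), the less rhythmic paralogue, ran from 11.5 to 27.9 over the 16 libraries, and its lowest values were in Mutant_Chow 2 and Mutant_Chow 1.

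The Rev-erb genes were the most abundant members. Nr1d1 (ENSMUSG00000020889, chromosome 11, 98767932 to 98775333, minus strand) overlaps the exons of Thra, the gene of a thyroid hormone receptor, by 263 bases on the opposite strand. Whether reads were assigned by strand is not stated, so reads of that stretch cannot be told apart. The same holds for Cry2, which overlaps D930015M05Rik by 295 bases on the opposite strand, and for Arntl, which overlaps Gm45355 by 33. Neither D930015M05Rik nor Gm45355 has a row. Nr1d1 was 83.4, 54.6, 97.1 and 98.9 in controls and 51.1, 52.7, 94.7 and 73.9 in mutants on chow. On HFD it was 84.6, 93.2, 87.6 and 72.9 in controls and 105, 54.2, 59.5 and 54.3 in mutants. On chow the 3 lowest values were those of Control_Chow 2, Mutant_Chow 1 and Mutant_Chow 2. On HFD the 4 libraries of the lower title series were at 84.6 to 105 and the 4 of the higher series at 54.2 to 72.9, without overlap. Nr1d2 (ENSMUSG00000021775, chromosome 14, 18204054 to 18239127, minus strand), the paralogue that peaks slightly later, was measured beside it. Nr1d2 was 40.7, 26.95, 54.9 and 64.6 in controls and 30.4, 40.9, 54.9 and 51.8 in mutants on chow. On HFD it was 24.8, 44.7, 42.6 and 62.3 in controls and 30.98, 58.4, 57.96 and 53.9 in mutants. Here the HFD series lay the other way round, at 24.8 to 44.7 in the lower and 53.9 to 62.3 in the higher series.

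By overall level, Nr1d1 exceeded every other member in each library but Mutant_HFD 2, where Nr1d2 was higher, and Cry2 and Per3 were of similar size, followed by Per1 and Per2, then Clock and Cry1, and last Arntl and Npas2. Means over the 16 libraries were 76.1 ± 19.3 for Nr1d1 and 46.3 ± 12.9 for Nr1d2 (SD, n = 16). The neighbours Cry2 (20.99 ± 4.81) and Per3 (20.3 ± 10.5) overlapped in mean ± SD. So did Per1 (13.3 ± 4.79) and Per2 (9.50 ± 4.04), Clock (5.27 ± 2.07) and Cry1 (4.35 ± 1.14), and Arntl (2.86 ± 3.82) and Npas2 (1.62 ± 2.88). Both genes of a pair were measured in the same 16 libraries, and their difference library by library was not tested.

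Libraries of the same group differed more in these genes than in most genes. The SD between libraries of a group, pooled over the 4 groups on the log2(value + 1) scale, was 1.05 for Npas2, 0.995 for Arntl and 0.941 for Per3, against a median of 0.260 over the 12704 tested genes. These 3 lay at percentiles 98.7, 98.5 and 98.3. Per2 was at percentile 92.9, and Cry1, the least variable member, at 66.6 with an SD of 0.320. All 10 members lay above the median.

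**Figure D2:**
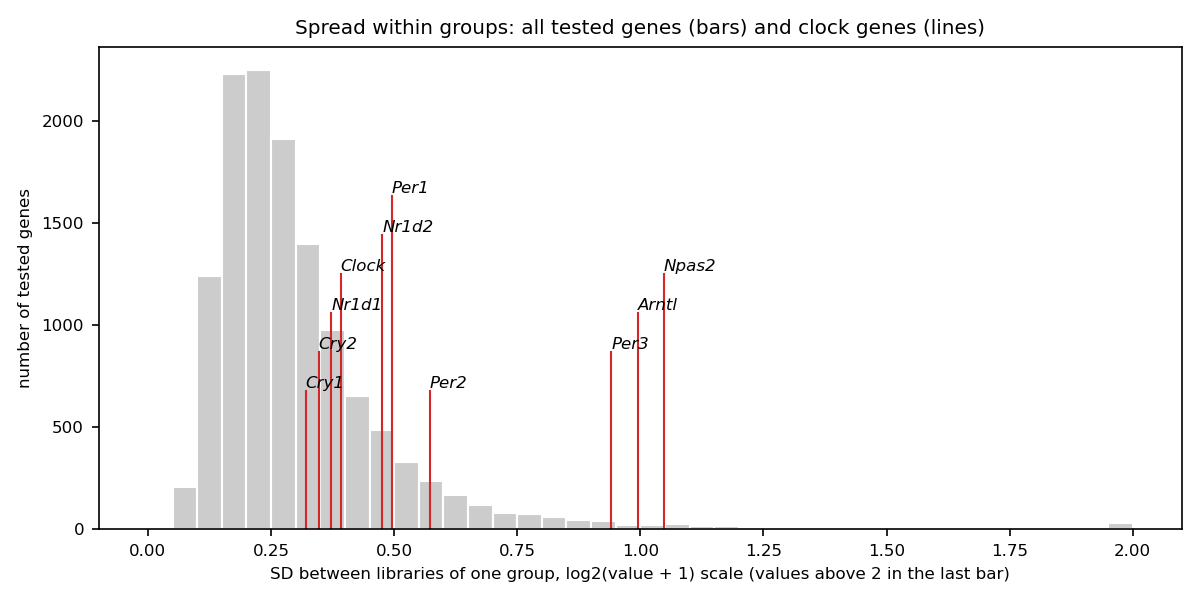
Bars count the tested genes by their SD between libraries of a group on the log2(value + 1) scale (x axis; the last bar collects all larger SDs), and red lines mark the 10 clock genes. Per3, Arntl and Npas2 stood in the far right tail, from 0.941 to 1.05, beyond the bulk of genes around the median of 0.260.

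The first comparison was between genotypes within a diet, the comparison the study was built on. With limma on log2(value + 1), 0 of the 10 members passed an adjusted p of 0.05 on chow and 0 on HFD, against a background of 0.0236% and 0.0157% of all tested genes. At an unadjusted p under 0.05 the members also numbered 0 in both, where the background was 6.08% on chow and 8.6% on HFD. On chow, mutant minus control differences ran from -0.54 (SE 0.366, limma adjusted p = 0.916) for Per2 to 0.40 (SE 0.318, limma adjusted p = 0.949) for Per1. On HFD they ran from -0.36 (SE 0.243, limma adjusted p = 0.646) for Nr1d1 to 0.42 (SE 0.663, limma adjusted p = 0.844) for Npas2. No member separated controls from mutants without overlap on either diet, which 3.05% of tested genes did on chow and 2.69% on HFD. The intervals were wide for the variable members: up to 1.41 either side of the estimate for Npas2, and 0.461 for Cry1. These intervals do not show that the genotypes were alike.

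The genotype comparison on HFD was unbalanced over the title series, with 3 controls in the lower and 3 mutants in the higher. With the series as a term, the Nr1d1 difference on HFD was -0.06 (limma adjusted p = 1.00) and the Per2 difference on chow -0.76 (limma adjusted p = 0.563), and 0 members passed. With library weights, which gave Mutant_HFD 1 a weight of 0.329 and Control_HFD 4 a weight of 0.228, Nr1d1 on HFD reached -0.60 (limma adjusted p = 0.0223) and was the only member to pass. Under the same weights 30.9% of all tested genes passed. Both of these libraries are the lone members of their genotype in a series.

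The second comparison was between diets within a genotype. The HFD minus chow estimates were below 0 for Arntl, Clock and Npas2 and above 0 for Per1, Per2 and Per3 in both genotypes, but 0 members passed in controls and 0 in mutants, with a background of 0% of tested genes in either. At an unadjusted p under 0.05 there were 2 members in controls, where 12.9% of genes reached it, and 2 in mutants, where 6.86% did. In controls these were Per1, at 0.81 (SE 0.318, limma adjusted p = 0.314), and Clock, at -0.63 (SE 0.258, limma adjusted p = 0.324). In mutants they were Per2, at 0.95 (SE 0.366, limma adjusted p = 0.660), and Arntl, at -1.38 (SE 0.629, limma adjusted p = 0.723). Arntl in controls differed by -0.71 (SE 0.629, limma adjusted p = 0.646), and Per3 in mutants by 1.10 (SE 0.592, limma adjusted p = 0.754).

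In mutants the Arntl, Per2 and Per3 estimates were nearer 0 without the 3 chow libraries of high Arntl. Without Control_Chow 2, Mutant_Chow 1 and Mutant_Chow 2, a choice made after the values were seen, the Arntl difference in mutants was -0.43 (limma adjusted p = 1.00) and that of Per2 0.34 (limma adjusted p = 1.00), and Per3 in mutants was at 0.02 (limma adjusted p = 1.00). Leaving out the libraries of highest Arntl fixes the direction of that change in Arntl. The same libraries held the lowest Per2 and Per3, so the direction was fixed in advance for these genes as well. In controls, over 25 alternatives, Per1 ran from 0.64 to 1.04 and Clock from -0.84 to -0.42. With library weights, Clock at -0.83 (limma adjusted p = 0.0224) and Per1 at 0.98 (limma adjusted p = 0.0151) passed in controls, where 17.8% of all tested genes passed under the same weights. No title series spans both diets, and a diet difference cannot be told apart from one between series. Neither can fewer cells of a type be told apart from less RNA per cell in these bulk samples.

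The genotype by diet interaction, which asks whether the diet difference in mutants differs from that in controls, gave 0 members past the threshold, with a background of 0%, and 0 members at an unadjusted p under 0.05, which 4.21% of genes reached. The estimates ran from -0.66 (SE 0.889, limma adjusted p = 0.916) for Arntl to 0.33 (SE 0.838, limma adjusted p = 0.951) for Per3. The Per3 estimate turned to -0.079 without Mutant_Chow 1, to -0.02 without Control_HFD 1, to -0.01 without Control_Chow 4 and to -0.26 without the 3 chow libraries.

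The third comparison was between title series within a diet, with genotype in the fit and differences given as higher-numbered minus lower-numbered. On HFD, Nr1d1 was lower in the higher series, with a difference of -0.59 (SE 0.199, limma adjusted p = 0.0465), and Nr1d2 was higher, with a difference of 0.81 (SE 0.203, limma adjusted p = 0.0119). These were the 2 of 10 members that passed, against 25.2% of all tested genes, so the share of clock genes was near the background. At an unadjusted p under 0.05 there were the same 2, where 37.8% of genes reached it. The 2 were also the only members whose values did not overlap between the HFD series, as in 35.6% of tested genes. The paralogues thus lay in opposite directions. The Nr1d1 to Nr1d2 ratio of levels was 3.41 in Control_HFD 1, 3.39 in Mutant_HFD 1, 2.08 in Control_HFD 2 and 2.06 in Control_HFD 3, all in the lower series. In the higher series it ran from 0.928 to 1.17, and in the 8 chow libraries from 1.29 to 2.05, between both HFD series. Arntl differed by -0.71 (SE 0.576, limma adjusted p = 0.395) and Per3 by 0.89 (SE 0.539, limma adjusted p = 0.250).

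Other genes moved between the HFD series beside them. Thra, which shares bases with Nr1d1, was at 16.1 to 19.99 in the lower series and 8.76 to 10.1 in the higher, a difference of -0.91 (SE 0.121, limma adjusted p = 0.000404), in the same direction as Nr1d1. On chow, Thra was at 16.9 in Control_Chow 2 and 15.97 in Mutant_Chow 1, its highest chow values, where Nr1d1 was low. In Mutant_Chow 2, where Nr1d1 was also low at 52.7, Thra was at 9.75, its lowest chow value. Of the 5 red cell markers, 2 were lower in the higher HFD series, and their summed level was 4830 to 6922 in the lower and 1695 to 4547 in the higher series. The stellate markers summed to 141 to 153 and 188 to 228, with 2 of 6 higher, and 2 of 6 endothelial markers were higher. These marker counts stand beside 25.2% of all tested genes that passed between the HFD series, and none is shown to be particular to its cell type. The part of Thra and of these markers in the Rev-erb values was not tested. Without Mutant_HFD 1, 0 members passed, and 14.7% of genes did. Without Control_HFD 4, 0 members passed, and 5.65% of genes did. With each of the 16 libraries left out in turn, Nr1d1 passed in 4 fits and lost its call in 12, and Nr1d2 lost its call in 2. The Nr1d1 difference was -0.44 (limma adjusted p = 0.151) with equal column totals and -0.47 (limma adjusted p = 0.171) with equal totals that left out the 20 most abundant genes.

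**Figure D3:**
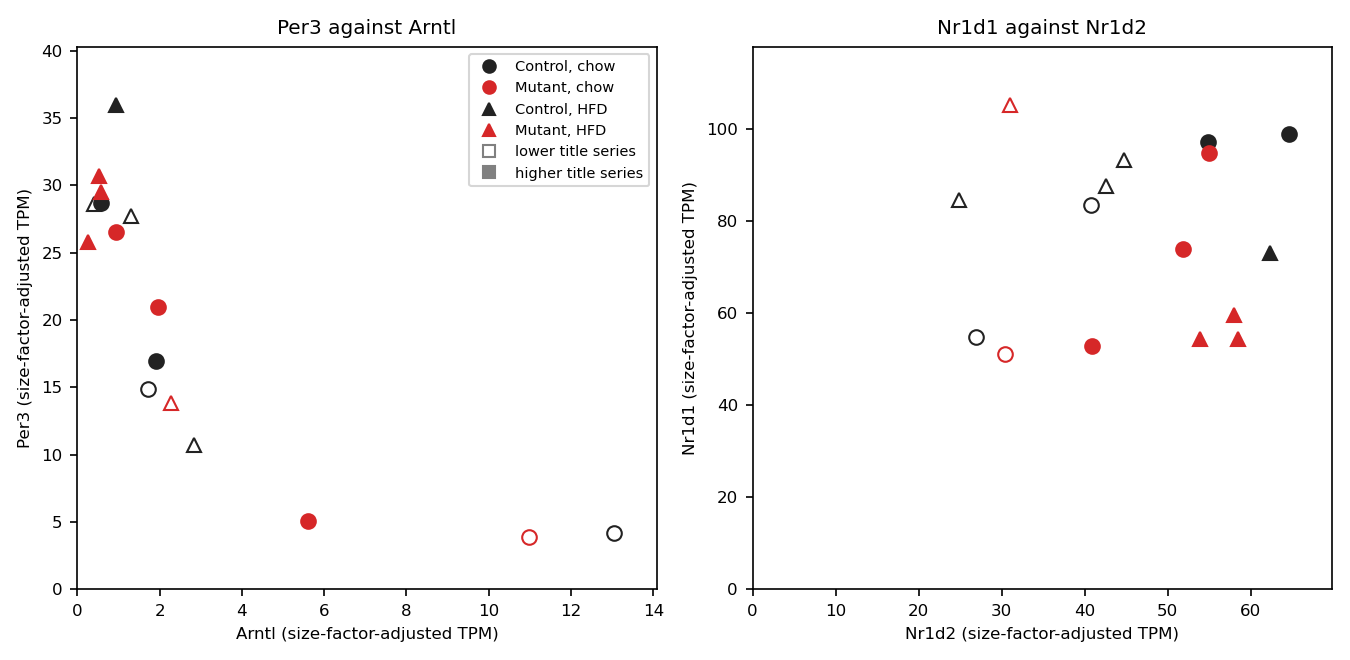
Each point is 1 library, in size-factor-adjusted TPM on linear axes: Per3 against Arntl on the left and Nr1d1 against Nr1d2 on the right; circles are chow, triangles HFD, black controls, red mutants, open symbols the lower and filled symbols the higher title series of a diet. Per3 tends to fall as Arntl rises over the 16 libraries, while on the right the open HFD triangles (Nr1d1 to Nr1d2 ratio 2.06 to 3.41) lie above the filled ones (0.928 to 1.17).

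On chow the series comparison gave 0 members past the adjusted threshold, against 0% of all genes, and 7 of 10 members at an unadjusted p under 0.05, where 11.6% of genes reached it. Of these 7, those with an estimate below 0, on the side of less RNA in the higher series, were Npas2, at -2.01 (SE 0.518, limma adjusted p = 0.200), Arntl, at -1.66 (SE 0.533, limma adjusted p = 0.272), and Cry1, at -0.57 (SE 0.177, limma adjusted p = 0.262). Those of the 7 with an estimate above 0 were Per3, at 1.48 (SE 0.499, limma adjusted p = 0.280), Per2, at 0.89 (SE 0.319, limma adjusted p = 0.296), Nr1d2, at 0.76 (SE 0.188, limma adjusted p = 0.184), and Nr1d1, at 0.51 (SE 0.184, limma adjusted p = 0.299). None of these passed the adjusted threshold, so they stand as estimates. Only Nr1d2 did not overlap between the chow series, at 26.95 to 40.7 and 40.9 to 64.6, as in 6.76% of genes. The count at an unadjusted p rested on single libraries. It was 1 without Mutant_Chow 1, where 8.85% of all tested genes reached it, and 3 without Control_Chow 2, where 9.01% did. Without Mutant_Chow 2 it was 8, where 14.9% did. Npas2 did not pass the filter in any of these fits. Leaving out all 3 would leave Control_Chow 1 alone in the lower chow series, so no count is given for that fit.

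**Figure D4:**
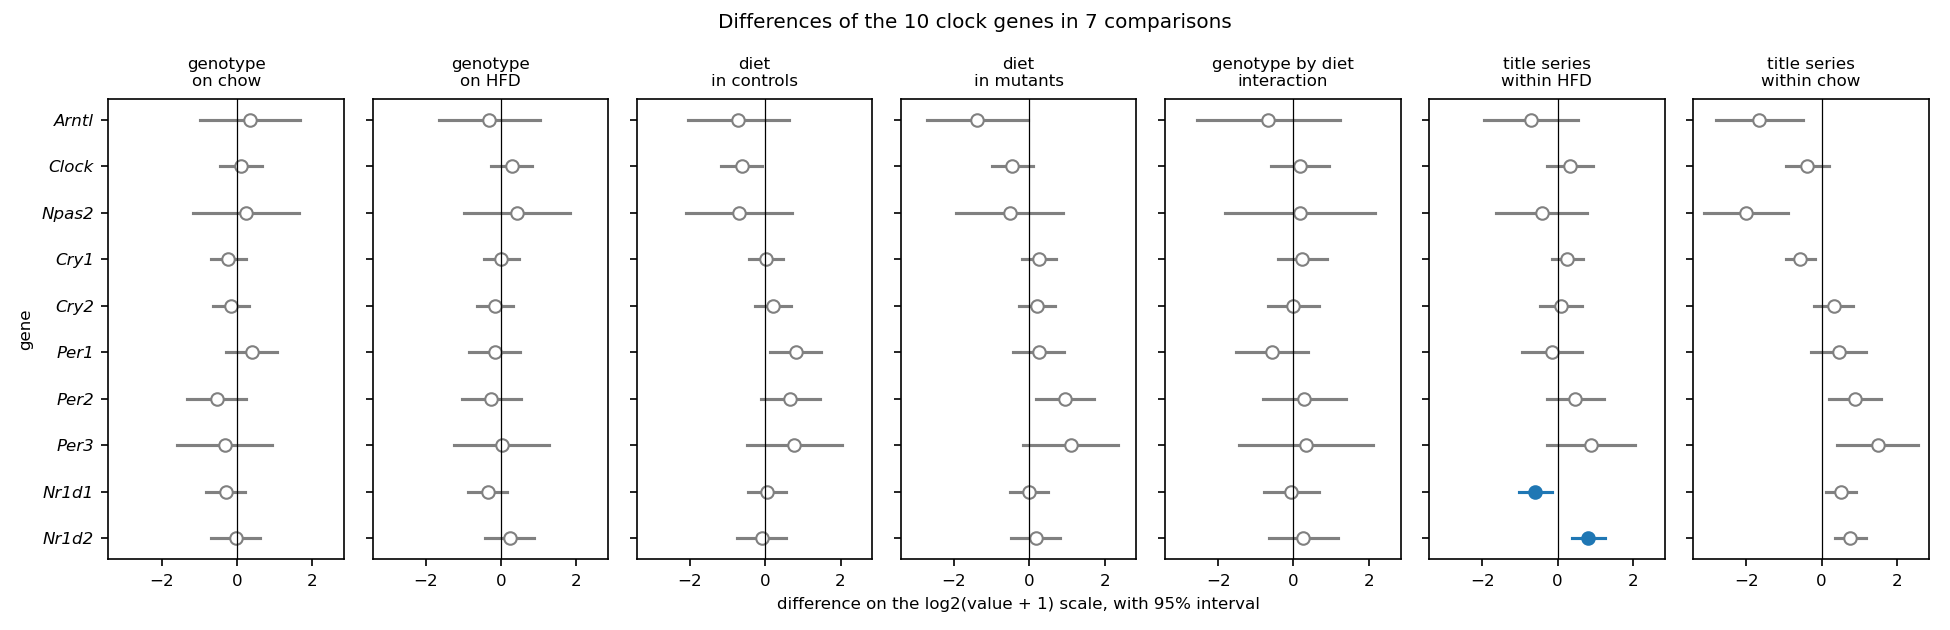
Points are limma differences on the log2(value + 1) scale and lines their 95% intervals, for the 10 genes (rows) in 7 comparisons (panels: mutant minus control, HFD minus chow, the interaction, and the higher minus the lower title series); filled blue marks an adjusted p under 0.05. Only Nr1d1 at -0.59 and Nr1d2 at 0.81 between the HFD series are filled.

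The libraries were then read one by one against the usual order of the clock, as a description with no test. High Arntl and Npas2 beside low Per2, Per3 and Dbp is the textbook arrangement of a liver around the change from night to day, and the reverse that of a liver late in the light phase. Control_Chow 2, Mutant_Chow 1 and Mutant_Chow 2 had the first arrangement. The Per3 to Arntl ratio of levels was 0.319, 0.355 and 0.906 in them. It was 3.78 in Control_HFD 1 and 6.10 in Mutant_HFD 1, and from 8.68 to 94.98 in the other 11 libraries. In this ratio Control_HFD 1 and Mutant_HFD 1 stood between, and they had the 2 highest Nr1d1 to Nr1d2 ratios and the lowest Nr1d2 on HFD. Other members of Control_HFD 1 went another way: its Per2, at 14.9, was the highest of all 16 libraries, and its Npas2 was 0.300. The 4 libraries of the higher HFD series had a Per3 to Arntl ratio of 38.4 to 94.98, a range that also held Control_HFD 3, at 72.1, and Control_Chow 4, at 50.9.

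The 3 chow libraries were 1 control and 2 mutants, and 2 of them belonged to the lower chow series and 1 to the higher. Control_Chow 1, the third library of the lower chow series, had an Arntl of 1.71 and a Per3 of 14.9, both outside the range of the 3. Setting aside Control_HFD 1 and Mutant_HFD 1, 11 libraries remained outside the 3. Among these 11, Control_Chow 1 was lowest in Per3, in Dbp, at 90.02, and in the Per3 to Arntl ratio, at 8.68. Its Per2, at 8.38, was not the lowest of the 11. The 3 libraries thus made up neither a genotype nor a title series. The hour of collection is not given, and whether it differed was not tested. Saa1, an acute-phase gene named after its values were seen, was at 20634 in Mutant_Chow 2, 2886 in Control_HFD 1 and 385 in Mutant_Chow 1, and at 15.6 to 379 in the other 13. It was 30.5 in Control_Chow 2, so it was not raised in all 3 libraries, and its part in the clock values was not tested. The Kupffer markers summed to 468 in Mutant_Chow 1 and 549 in Mutant_Chow 2, the 2 highest of 16 libraries, and to 174 in Control_Chow 2. The lymphocyte markers summed to 19.5 and 26.3 in the same 2 mutants, again the 2 highest, and to 5.79 in Control_Chow 2, the lowest of 16. The part of these markers in the clock values was not tested.

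The auxiliary loop and its D-box factors, a list of 10 genes of which 9 had a row and passed the filter, divided the libraries in the same way in part of its genes. Dbp, a D-box activator driven by the E-box loop, was 90.02, 4.93, 97.2 and 219 in Control_Chow and 6.68, 16.7, 167 and 124 in Mutant_Chow. On HFD it was 57.3, 255, 296 and 143 in controls and 135, 138, 153 and 181 in mutants. The 3 libraries held 4.93 to 16.7, the other 13 57.3 to 296. Tef, a related activator, was at 56.1 to 72.7 in the 3 and 95.5 to 284 in the others. Bhlhe40, a repressor that competes for E-boxes, was at 31.4 to 52.2 and 66.6 to 128. Its paralogue Bhlhe41 was at 0.184 to 0.908 and 0.942 to 7.16. In these 4 genes the sets did not overlap. The 3 libraries were picked for their Arntl values in these data. The share of all tested genes that split them from the other 13 was not counted, so the 4 genes show no excess. Clpx and Chka, genes outside these lists, split the same way. Both were picked for likeness to Arntl over the same libraries, so their split adds no support.

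Ciart, a repressor of the activators, was at 1.49 to 5.27 in the 3 libraries and overlapped the others only through Mutant_HFD 1, at 4.05. Nfil3, the D-box repressor that runs opposite to Dbp, was at 21.3 to 27.2 in the 3 and 5.96 to 24.6 in the others, with Control_HFD 1 as the highest of these. Hlf was at 15.7 to 21.8 in the 3 and overlapped the others only through Control_HFD 1, at 16.5, and Mutant_HFD 1, at 20.6. Rora overlapped widely. Between the HFD series, 2 of the 9 genes passed, beside 25.2% of all tested genes, so the count was near the background. Both were higher in the higher series: Rora, at 0.62 (SE 0.127, limma adjusted p = 0.00395), and Hlf, at 0.67 (SE 0.203, limma adjusted p = 0.0296). Between the chow series 0 of 9 passed and 8 had an unadjusted p under 0.05, which 11.6% of all tested genes had, 7 higher and 1, Nfil3, lower in the higher series, at -0.90 (SE 0.303, limma adjusted p = 0.280). The median of the 9 differences on chow was 0.91, against 0.00282 over all tested genes.

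**Figure D5:**
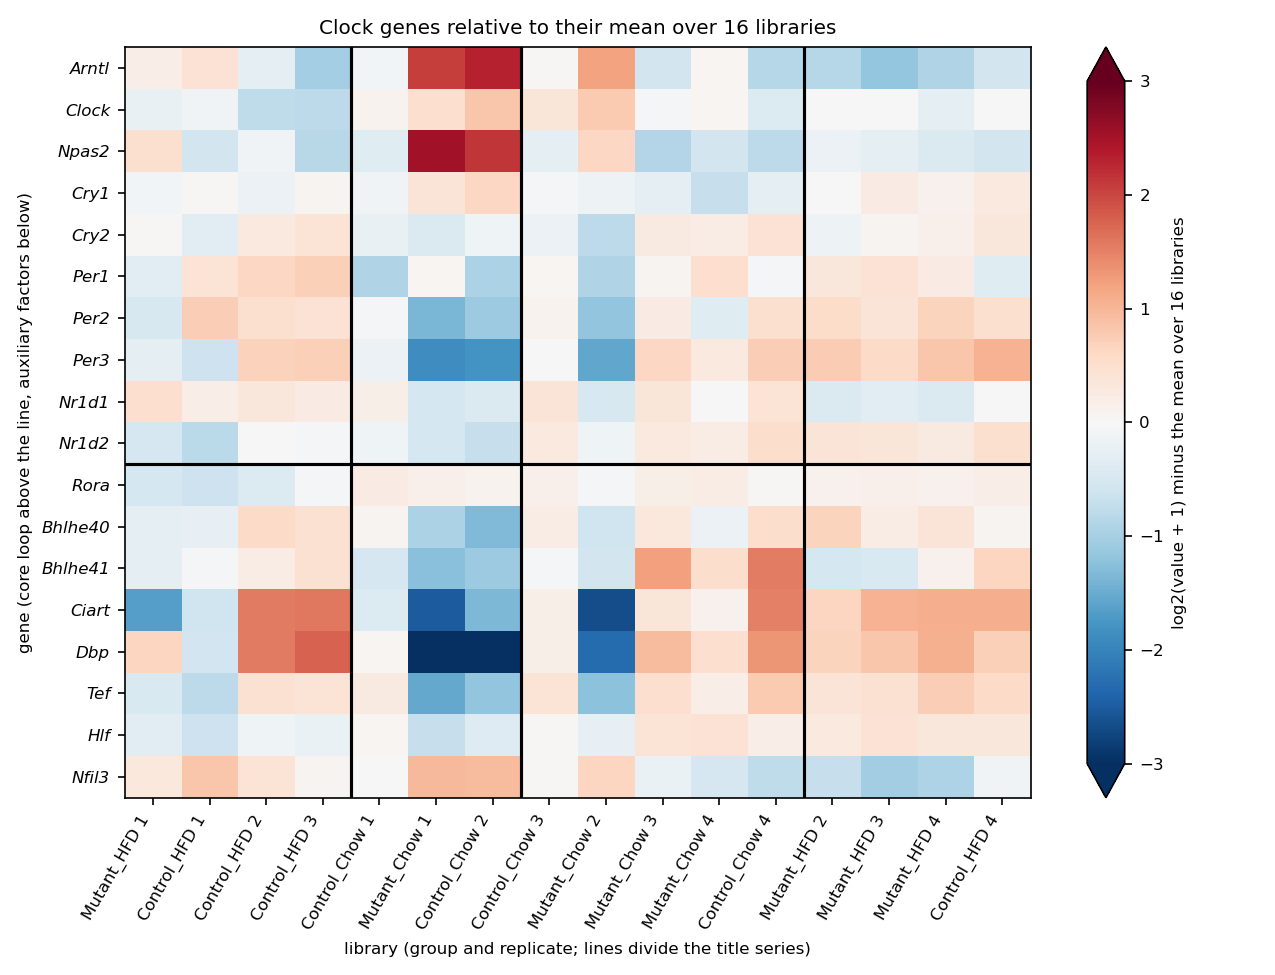
Colours show log2(value + 1) minus the mean of the gene over 16 libraries, red above and blue below, with values past 3 either way at the end colours; rows are the 10 core genes above the line and 8 auxiliary genes below, columns the libraries by title number with lines between title series. Mutant_Chow 1, Control_Chow 2 and Mutant_Chow 2 share red Arntl, Npas2 and Nfil3 and blue Per2, Per3, Ciart, Dbp and Tef.

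Pairs of members were compared over the 16 libraries, all values being on the log2(value + 1) scale from the same columns, so that scaling between libraries is shared. Of 45 pairs, 13 had a Pearson coefficient of at least 0.7 in size, 5 positive and 8 negative. Per3 had the most negative coefficient with Arntl of all 12703 other tested genes, -0.955, and Per2, at -0.865, was the 15th from the lowest. Npas2, at 0.879, was the 10th from the highest. Within diets, Arntl with Per2 was at -0.945 on chow and -0.296 on HFD, Arntl with Npas2 at 0.968 and 0.382, and Arntl with Per3 at -0.971 and -0.824 (n = 8 each). Arntl and Nr1d1 went opposite ways on chow (-0.927, n = 8) and together on HFD (0.671, n = 8). Nr1d1 and Nr1d2 went together on chow (0.854) and opposite on HFD (-0.704). Arntl and Nr1d2 were opposite on both, at -0.939 and -0.838. Of the 8 chow points, 3 are the libraries of high Arntl.

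Outside the members, the genes most like Arntl over the 16 libraries were Stra6l (0.965), Clpx (0.949), Rai14 (0.926), Chka (0.917) and Lasp1 (0.910). Clpx encodes a subunit of a mitochondrial protease, and Chka a choline kinase. The most opposite were Dbp (-0.950), Bhlhe40 (-0.937), Ddo (-0.933), Coq10b (-0.928) and Tef (-0.919), of which Dbp, Bhlhe40 and Tef belong to the auxiliary list. Clpx was at 102 to 159 in the 3 chow libraries and 32.3 to 73.7 in the other 13, a split favoured by its choice for likeness to Arntl. For Nr1d1 the most alike were Mpg (0.883), Grtp1 (0.857), Stbd1 (0.856), Cyp2d22 (0.855) and Cyp4a32 (0.848). The most opposite were Gm10184 (-0.879), Fut8 (-0.856), Lratd2 (-0.852), Pglyrp2 (-0.848) and Cc2d1b (-0.846). Neither set for Nr1d1 held a clock gene of the lists used. Gm10184 and Cyp4a32 have close copies, and their values are uncertain.

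Further lists around the clock were counted in the series comparisons. Between the HFD series 25.2% of all 12704 tested genes passed, 1718 higher and 1479 lower in the higher series. On chow 0% passed. No list was tested against these shares. Of 22 kinases, ligases and cofactors that act on clock proteins, 6 were higher and 3 lower in the higher HFD series, and on chow 0 passed. Of 17 rhythmic liver outputs, 6 were higher and 2 lower between the HFD series. On chow 0 of them passed and 9 had an unadjusted p under 0.05, 7 higher and 2 lower, beside 11.6% of all tested genes. Of 9 tested temperature-responsive rhythmic genes, 4 were lower in the higher HFD series and 0 higher, with a list median of -0.60 against 0.04 over all tested genes. These were the RNA-binding protein gene Cirbp, at -0.85 (SE 0.119, limma adjusted p = 0.000500), and the chaperone genes Hspb1, at -1.19 (SE 0.279, limma adjusted p = 0.00828), Hspa1b, at -2.04 (SE 0.514, limma adjusted p = 0.0122), and Dnajb1, at -0.60 (SE 0.197, limma adjusted p = 0.0422). Cirbp was at 42.6 to 48.1 in the lower and 20.1 to 28.7 in the higher HFD series, without overlap, and on chow 0 genes of this list passed. Hspa1b has a near-identical copy, and its value is uncertain.

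Of 11 glucocorticoid-responsive genes, 1 was lower and 0 higher in the higher HFD series. Of 11 fasting-induced genes 1 was higher and 1 lower, of 11 fed-state genes 1 was higher, and of 10 immediate early genes 2 were lower. On chow, 0 genes of these 4 lists passed. With 25.2% of all genes past the threshold between the HFD series, none of these counts stands as particular to its list.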

How the data were processed

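Liver RNA was analysed in 16 libraries. According to the study's methods, barcoded libraries were made with a NEBNext Ultra II kit, sequenced on a NovaSeq instrument and assigned with kallisto to mouse transcripts (mm10) per gene, and genes were tested with sleuth. Tool versions, the annotation release and strand settings are not given in the sources used here. The authors deposited 1 signal value for each gene and library, taken here as a TPM further adjusted by size factors. The unit is not stated and was inferred from fractional values and unequal column totals (905897 to 1119703), which do not settle it. TPM keeps no depth, so depth is unknown and precision rests on the spread between libraries.

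From these values, log2(value + 1) was tested with limma 3.58.1 in R 4.3.3, with empirical Bayes moderation and a variance trend, on 12704 of 15544 genes that reached 1 in at least 4 libraries. P-values were two-sided, were adjusted across the 12704 genes after Benjamini and Hochberg, and were called under 0.05. Genotype and diet contrasts came from 1 fit of 4 group means. Title-series contrasts came from a fit that also held series terms within each diet. The script was tested on simulated data before use. Each sample's group came from its genotype and treatment labels. The labels do not state that the libraries of a group came from separate animals, and the p-values measure only the spread between these libraries.

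The members and lists were chosen with earlier results of these data known. Named were the 10 members, the auxiliary list, the 5 genes most like and most opposite to Arntl and to Nr1d1, and from other lists at most 4 genes of smallest p. Of the auxiliary list, 1 gene is counted but not reported here. Saa1 and Thra were added after their values were seen. Positions were matched by gene identifier to GENCODE M21 on GRCm38, and exon overlaps were taken from it. The table has 17 identifiers that share 8 symbols and 5 with no symbol, none of them members. Alternatives were 3 other scalings, a pseudocount of 0.1, other filters, library weights, other fits and leaving out each library.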

Additional observations from a re-analysis of the deposited data

Results flagged for a closer look

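In groups of 4, the highest or lowest library was compared with its nearest neighbour by Dixon's criterion over the 10 members in 4 groups, 40 groups of values in all. It marked 6 libraries and genes. For independent, normally distributed values the criterion marks about 1 in 20, or 2 of 40. The values here were not log-transformed and the genes share libraries, so 6 against 2 does not test for an excess. Arntl was 13.04 in Control_Chow 2, with the nearest other library of the group at 1.91. Npas2 was 7.51 in the same library, with the nearest at 0.589. Arntl was 2.27 in Mutant_HFD 1, with the nearest at 0.577. Nr1d1 was 105 in Mutant_HFD 1, with the nearest at 59.5. Nr1d2 was 31.0 in Mutant_HFD 1, the lowest of its group, with the nearest at 53.9. Cry2 was 27.9 in Control_Chow 4, with the nearest at 18.6. Of the 6, Mutant_HFD 1 accounts for 3, and it is the mutant of the lower HFD series.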

How the results depend on the processing

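No paired analysis was possible because the labels carry no replicate numbers. The members past the threshold stayed at 0 in the genotype on chow, diet in mutants, interaction and chow series comparisons under every alternative run. With library weights the count was 1 for genotype on HFD and 2 for diet in controls, against 0 each, while the share of all tested genes past the threshold rose to 30.9% and 17.8%, from 0.0157% and 0%. Between the HFD series the count of 2 became 1, Nr1d2, under 3 alternatives. These were equal column totals, equal totals without the 20 most abundant genes, and no filter on low values. All tested genes past the threshold then made up 27.8%, 25.9% and 19.8%. With no filter, Nr1d1 had a limma adjusted p of 0.0548. Leaving out each library in turn gave 0 to 2, with 0 without Mutant_HFD 1 and without Control_HFD 4, where 14.7% and 5.65% of all genes passed. Of these 16 fits Nr1d1 lost its call in 12 and kept it in 4 (without Control_Chow 1, Control_Chow 2, Mutant_Chow 2 and Mutant_Chow 3), while Nr1d2 lost it in 2, and the Nr1d1 difference kept its sign throughout (-0.90 to -0.27), as did that of Nr1d2 (0.69 to 0.88). The Per3 interaction of 0.33 ran from -0.079 to 0.83 as single libraries were left out. It reversed to -0.02 without Control_HFD 1, to -0.079 without Mutant_Chow 1, to -0.01 without Control_Chow 4 and to -0.26 without the 3 chow libraries of highest Arntl, an alternative chosen after seeing the data. The cause was not tested. The smallest values, those of Npas2 and Arntl, are the least certain at an unknown depth. Npas2 could not be tested where a left-out library took it below the filter.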
